A study of Mus musculus with 18 samples.

Results

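The acute phase proteins are plasma proteins that hepatocytes make in larger or smaller amounts during inflammation or after injury. The 9 genes described here encode positive members of this group: the serum amyloid A proteins (Saa1, Saa2, Saa3), the orosomucoids (Orm1, Orm2), haptoglobin (Hp), hemopexin (Hpx), lipocalin 2 (Lcn2) and the protease inhibitor Serpina3n. They are 9 of 28599 gene names on the array. They were read from every probe that carries one of these names, which gave 10 of 41174 probes, with a pair of probes for Saa1 and 1 probe for each other gene. Hemopexin carries an older name in the files (Hpxn) and was matched through its transcript accession. All 10 probes were among the 25439 kept, which the scanner software called well above background on 6 or more of 18 arrays.

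Liver RNA of 18 male CD-1 mice, an outbred stock, was measured with 1 mouse per 1-colour Agilent array. The groups were controls, mice on 50 µg of bisphenol A per kg body weight per day (low dose) and mice on 5000 µg per kg per day (high dose), with 6 mice in each. All ate the same powdered diet, with or without bisphenol A, over a period of 28 days, and their age at sampling was 9 weeks. The doses are averages that the submitters worked out from an assumed food intake, and the livers are fragments of the large lobe. Bisphenol A is a plastics monomer with weak estrogen activity, and the study asked how both doses change the liver transcriptome.

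In the liver, interleukin 6 acts through its receptor, the kinase JAK and the transcription factor STAT3. Interleukin 1 and tumour necrosis factor act through NF-kB. Together with C/EBP factors these signals switch on the positive acute phase genes, while genes of negative acute phase proteins such as albumin are turned down. The serum amyloid A and lipocalin 2 genes are known for very large increases, whereas haptoglobin and hemopexin are abundant in healthy liver already.

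The 3 serum amyloid A genes are neighbours on mouse chromosome 7 and the orosomucoid genes on chromosome 4; probe positions are those of the files, on build mm8. The Saa3 probe covers chr7:46580703-46580762, the Saa1 probe with fewest saturated arrays spans chr7:46608839-46609311, and the Saa2 probe covers chr7:46622207-46622266. The Hpx probe lies farther along the same chromosome, at chr7:105465611-105465670. The Orm1 probe spans chr4:62831810-62832417 and the Orm2 probe covers chr4:62850306-62850365. The probes of Hp (chr8:112464401-112464460), Lcn2 (chr2:32207526-32207770) and Serpina3n (chr12:104814758-104814817) stand alone. Whether a probe lies in a coding exon or a UTR was not analysed here.

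Promoters were looked up for the members, since most of them were high in the same mice. RefSeq sequences (GRCm38.p6) were at hand for 7 of the 9 genes. Those of the serum amyloid A genes, Orm2 and Lcn2 are shown, each as the 250 bases before the transcription start, 5′ to 3′ on the gene's strand. Capitals mark a match to the C/EBP motif TTGCNNAA on either strand and, in Orm2, also the TATA box letters TATAAA. The windows are chr7:46742981-46743230 (minus strand) for Saa1, chr7:46751583-46751832 (plus strand) for Saa2, chr7:46715677-46715926 (minus strand) for Saa3, chr4:63362199-63362448 (plus strand) for Orm2 and chr2:32387740-32387989 (minus strand) for Lcn2.
Saa1: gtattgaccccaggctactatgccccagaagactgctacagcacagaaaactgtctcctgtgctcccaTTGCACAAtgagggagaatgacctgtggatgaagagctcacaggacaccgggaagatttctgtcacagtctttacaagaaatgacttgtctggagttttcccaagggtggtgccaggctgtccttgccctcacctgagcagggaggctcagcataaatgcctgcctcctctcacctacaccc
Saa2: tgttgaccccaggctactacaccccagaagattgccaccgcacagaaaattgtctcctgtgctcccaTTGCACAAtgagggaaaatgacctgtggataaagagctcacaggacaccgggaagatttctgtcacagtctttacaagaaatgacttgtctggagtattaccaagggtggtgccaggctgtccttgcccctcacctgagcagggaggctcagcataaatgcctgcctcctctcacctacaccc
Saa3: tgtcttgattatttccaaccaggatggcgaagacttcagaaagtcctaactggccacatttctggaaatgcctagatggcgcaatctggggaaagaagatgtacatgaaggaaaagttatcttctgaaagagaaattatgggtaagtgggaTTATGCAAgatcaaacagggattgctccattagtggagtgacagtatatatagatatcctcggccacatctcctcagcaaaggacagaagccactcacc
Orm2: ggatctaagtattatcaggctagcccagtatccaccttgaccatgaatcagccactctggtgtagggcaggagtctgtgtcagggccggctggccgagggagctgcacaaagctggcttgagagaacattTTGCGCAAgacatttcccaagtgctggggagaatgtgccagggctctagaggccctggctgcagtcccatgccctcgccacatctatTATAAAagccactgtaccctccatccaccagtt
Lcn2: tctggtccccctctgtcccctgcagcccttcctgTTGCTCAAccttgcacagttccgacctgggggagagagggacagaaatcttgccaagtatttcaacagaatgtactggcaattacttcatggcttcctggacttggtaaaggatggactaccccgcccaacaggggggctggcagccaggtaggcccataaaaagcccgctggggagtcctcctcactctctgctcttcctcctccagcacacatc

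The Saa1 and Saa2 windows were 94.8% identical (238 of 251 aligned columns), and the C/EBP letters TTGCACAA begin at -182 in Saa1 and at -183 in Saa2, counted from the start. Every other pair of the 7 windows was 44.5% to 53.2% identical. The C/EBP motif also stood in Saa3 on the opposite strand (TTATGCAA as printed, from -99), in Orm2 (TTGCGCAA, which reads the same on both strands, from -120) and in Lcn2 (TTGCTCAA, from -216). Hpx held it as TTGCTGAA from -200, and Serpina3n did not hold it. It was thus found in 6 of 7 member windows, and in 9.56% of all 32851 promoter windows of the same length. The NF-kB consensus motif, searched on both strands, stood in 0 of 7 member windows and 3.9% of all windows, and a STAT3 motif (TTCCNGGAA, both strands) in 0 of 7 and 0.913%. The letters TATAAA on the gene's strand stood in Orm2 alone of the 7, from -33, and in 7.59% of all windows. These motifs do not overlap one another in the member windows. A match is a run of letters and no evidence of a bound factor.

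In 3 low-dose and 3 high-dose livers, the Saa3, Orm1, Orm2 and Lcn2 transcripts all stood above every control, as did Saa1 on 1 of its pair of probes. Among the other dosed livers these transcripts lay mostly among the controls or below them. No difference between group averages passed the test for these genes, Saa2 or Serpina3n, and Hp and Hpx were too bright to be compared.

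Levels are given as log2 intensity relative to each array's 75th percentile, so they compare mice for 1 probe but not probes with each other. The scanner stops at an intensity of 65502, and a spot at that ceiling is called saturated: its level is a lower bound. The 75th percentile itself was 173 to 295 intensity units in control arrays, 220.2 to 334.5 in low-dose and 255 to 340.0 in high-dose arrays. A probe at the ceiling therefore takes a lower level on a brighter array. The 30 probes saturated on all 18 arrays had a median log2 fold change of -0.36 in low-dose mice and -0.33 in high-dose mice against control, and 0.02 between the doses. The arrays lay on 5 slides, taken here as arrays that share a scan time, and 4 of them held all 3 groups. High-dose mouse 2 stood apart: the summed level of 5 neutrophil markers, as intensity over the array's 75th percentile, was 57.5 in it and 0.969 to 6.98 in the other mice. S100a9, the brightest of the 5, weighs most in this sum. The median over the 5 of the log2 level minus the control mean was 4.92 in that mouse and -0.50 to 1.64 in the others. High-dose fold changes of the members and of the lists are given with and without high-dose mouse 2.

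Saa1, whose protein travels on high-density lipoprotein, was unevenly spread within the dosed groups. Its lowest, median and highest levels were 5.25, 5.89 and 7.34 in controls, 4.63, 6.75 and 7.88 in low-dose mice and 4.41, 6.74 and 7.78 in high-dose mice. Low-dose mice 2, 4 and 6 (7.72, 7.88 and 7.52) and high-dose mice 2, 3 and 6 (7.73, 7.78 and 7.62) lay above every control on the first probe. The other dosed mice, at 4.41 to 5.99, lay among the controls or below them, so the groups overlapped. All of these 6 high values but that of high-dose mouse 6 came from saturated spots. The second Saa1 probe was saturated on 6 arrays, those of these same 6 mice, and none of the control spots of either probe was. On that probe control mouse 6 stood at 7.88, and only low-dose mouse 4 (8.08) and high-dose mice 3 and 6 (7.95 and 7.96) stood above it. Low-dose mice 2 and 6 (7.82 and 7.62) and high-dose mouse 2 (7.76) were below it with saturated spots, so their order against it cannot be read. The log2 fold change of the first probe was 0.63 ± 0.65 (SE) for low dose against control and 0.45 ± 0.65 for high dose against control, and neither passed (limma, adjusted p = 0.766 and 0.913). The high-dose value was 0.20 without high-dose mouse 2. The second probe gave 0.35 ± 0.58 in low-dose mice and 0.17 ± 0.58 in high-dose mice (adjusted p = 0.869 and 0.968). High against low dose gave -0.18 ± 0.65 on the first probe. Within the 4 slides that hold controls, the low-dose difference was -0.52 to 2.55, higher on 3, and the high-dose difference -1.43 to 2.45, higher on 2.

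Saa2, the neighbouring gene whose product is nearly the same protein, followed Saa1. The lowest, median and highest levels of Saa2 were 6.13, 6.55 and 7.91 in controls, 5.19, 7.10 and 7.96 in low-dose mice and 5.14, 7.09 and 7.84 in high-dose mice. The 6 saturated spots were again those of low-dose mice 2, 4 and 6 and high-dose mice 2, 3 and 6. Control mouse 6 stood at 7.91 without saturation. Only low-dose mouse 4 can be placed above it, since its saturated level of 7.96 is a lower bound. The other saturated levels, 7.55 to 7.84, are lower bounds below 7.91, so control mouse 6 cannot be ranked against them. The other controls lay between 6.13 and 6.74. The log2 fold changes were 0.26 ± 0.54 in low-dose mice (adjusted p = 0.898) and 0.10 ± 0.54 in high-dose mice (adjusted p = 0.979). Without high-dose mouse 2 the high-dose value was -0.10. For Saa1 and Saa2 the ceiling cut off the dosed groups alone, so these fold changes are not full measures of them.

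Saa3, which macrophages and fat cells are known to make besides the liver, had a wide range. Levels of Saa3 (lowest, median and highest) were 3.41, 4.13 and 5.54 in controls, 2.86, 5.96 and 8.10 in low-dose mice and 2.76, 5.01 and 7.77 in high-dose mice. Low-dose mice 2, 4 and 6 stood at 7.84, 8.10 and 7.59 and high-dose mice 2, 3 and 6 at 7.77, 7.39 and 6.00, all above every control. The remaining dosed mice stood at 2.76 to 4.33. The distance between the lowest and the highest mouse was at least 37.9-fold in low-dose mice and at least 32.3-fold in high-dose mice, where the highest spot was saturated, against 4.37-fold in controls. The SD was 2.30 in low-dose mice, 2.15 in high-dose mice and 0.75 in controls (n = 6 each); this difference in spread was not tested. The mean was at least 3.00-fold higher in low-dose mice than in controls (log2 1.58 ± 1.00 SE, adjusted p = 0.574) and at least 1.99-fold higher in high-dose mice (0.99 ± 1.00 SE, adjusted p = 0.862). These are bounds because 2 low-dose spots, 1 high-dose spot and 0 control spots were saturated. Without high-dose mouse 2, whose spot is the saturated one, the high-dose mean was 1.39-fold higher (log2 0.48). Both differences lay within the spread between mice. Within the 4 slides the low-dose difference was -0.68 to 4.56, higher on 3, and the high-dose difference -1.50 to 3.85, higher on 2. The probe was saturated on 3 arrays, and its deposited accessions list the Saa1 transcript as well. Whether Saa1 RNA adds to its signal was not tested.

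**Figure D1:**
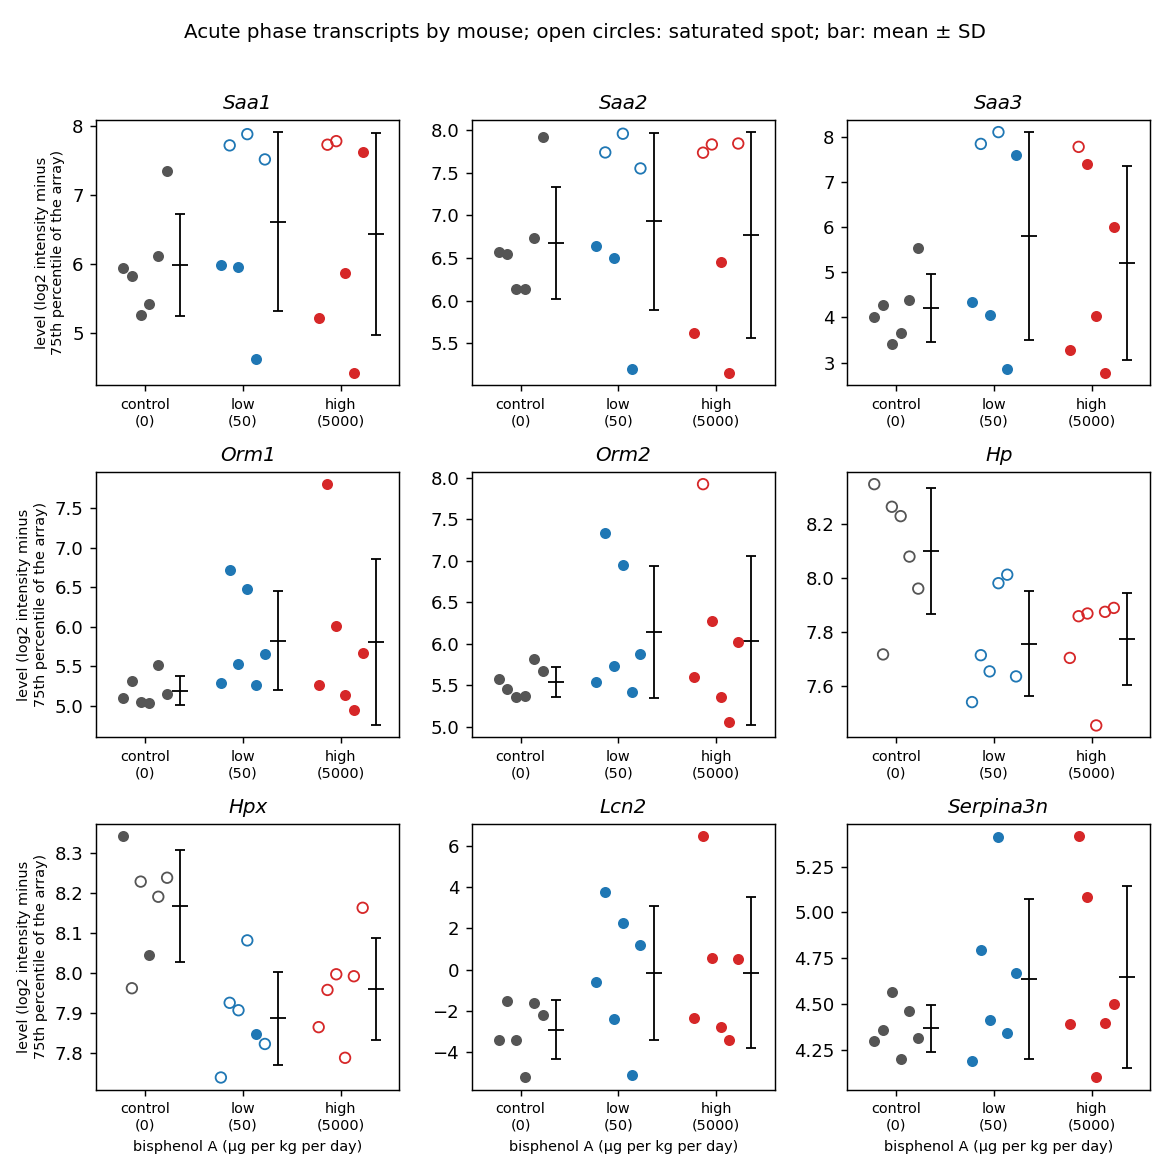
Level of each gene in each mouse (log2 intensity relative to the array's 75th percentile, vertical axis) by dose of bisphenol A in µg per kg per day, from 1 probe per gene. Points are mice 1 to 6 from left to right in each group, open circles are saturated spots, and bars are the mean ± SD (n = 6). In Saa1, Saa2, Saa3, Orm1, Orm2, Lcn2 and Serpina3n some dosed mice lie above every control and others among or below them (Saa2 in high-dose mice excepted), and in Hp every point is a saturated spot.

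Orm1 encodes orosomucoid 1, a glycoprotein that binds drugs and lipids in plasma, and its probe was saturated on no array. Its lowest, median and highest levels were 5.03, 5.12 and 5.51 in controls, 5.27, 5.59 and 6.72 in low-dose mice and 4.95, 5.46 and 7.80 in high-dose mice. Of the low-dose mice, 4 lay above every control, with mice 2 and 4 highest (6.72 and 6.48). Of the high-dose mice, 3 did, with mouse 2 at 7.80 and the next, mouse 3, at 6.01. The spot of mouse 2 was not called saturated, but its log2 intensity before scaling was 15.87. That is above the Saa1, Saa2 and Saa3 spots called saturated on the same array (15.79 to 15.84), so 7.80 may be held down by the ceiling. The means were 5.82 ± 0.62 in low-dose mice and 5.19 ± 0.19 in controls (SD, n = 6 each), a log2 fold change of 0.63 ± 0.39 (SE). It did not pass over all probes (limma, adjusted p = 0.554), with an exact permutation p of 0.0216 for this probe alone, 2-sided over 924 splits that can reach 0.00216. At the high dose it was 0.61 ± 0.39 (adjusted p = 0.766; exact permutation p = 0.16), and 0.21 without high-dose mouse 2. Within the 4 slides the low-dose difference was -0.03 to 1.60 and the high-dose difference -0.21 to 2.49, each higher on 3.

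Orm2, next to Orm1 on chromosome 4 and of like function, gave nearly the same order of mice (rho = 0.98). Orm2 had lowest, median and highest levels of 5.35, 5.51 and 5.81 in controls, 5.42, 5.81 and 7.34 in low-dose mice and 5.05, 5.81 and 7.92 in high-dose mice. Low-dose mice 2 and 4 (7.34 and 6.95) and high-dose mouse 2 (7.92, saturated) were highest. The log2 fold changes were 0.60 ± 0.41 in low-dose mice (adjusted p = 0.61) and 0.50 ± 0.41 in high-dose mice (adjusted p = 0.826), with 0.12 for high dose against control without high-dose mouse 2. Low-dose mice were higher on all 4 slides with controls, by 0.02 to 1.71, and high-dose mice on 2, from -0.27 to 2.47.

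Lcn2 encodes a lipocalin that withholds iron from bacteria by binding their siderophores; hepatocytes make it in the acute phase and neutrophils store it in granules. It had the widest spread of the 9 genes, with a within-group SD of 2.94 on the log2 scale. Its lowest, median and highest levels were -5.21, -2.80 and -1.52 in controls, -5.11, 0.30 and 3.75 in low-dose mice and -3.38, -0.89 and 6.47 in high-dose mice. Low-dose mice 1, 2, 4 and 6 (-0.59, 3.75, 2.25 and 1.19) and high-dose mice 2, 3 and 6 (6.47, 0.59 and 0.54) lay above every control. The spot was not well above background in control mouse 4 and low-dose mouse 5, the lowest of the 18, so these 2 levels are poorly measured, and it was saturated in none.

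The mean level of Lcn2 was 6.72-fold higher in low-dose mice than in controls (log2 2.75 ± 1.58 SE, adjusted p = 0.522, exact permutation p = 0.0909). At the high dose it was 6.71-fold higher than in controls (2.75 ± 1.58 SE, adjusted p = 0.751, exact permutation p = 0.102). Neither difference exceeded the spread between mice, and the doses differed by less than 0.01 on that scale. Without high-dose mouse 2 the high-dose value was 1.42, and the high-dose mean was then lower than the low-dose mean by a log2 difference of -1.33. The low-dose value was 3.92-fold without low-dose mouse 2 and 13.4-fold without low-dose mouse 5, whose spot was not well above background, and lay between these without any other low-dose mouse. Within the 4 slides that hold controls, the high dose was higher on all, by 0.19 to 7.98, and the low dose on 3, from -1.33 to 6.57. High-dose mouse 2 also had by far the most neutrophil transcript: S100a9 stood at 5.50 in it and at -0.81 to 2.43 in the other mice, and Mpo at 1.84 against -4.55 to -2.13. Low-dose mouse 1 was next in the summed neutrophil markers, at 6.98. Controls ranged over 1.33 to 3.23, and the low-dose mice with the highest Lcn2, mice 2 and 4, had sums of 3.24 and 3.00. The part of neutrophils in the Lcn2 level of high-dose mouse 2 was not tested. In liver pieces, more cells of a type and more RNA per cell cannot be told apart.

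Serpina3n encodes an inhibitor of serine proteases such as granule enzymes of leukocytes. Across the groups, its lowest, median and highest levels were 4.20, 4.34 and 4.57 in controls, 4.19, 4.54 and 5.41 in low-dose mice and 4.10, 4.45 and 5.42 in high-dose mice. Low-dose mouse 4 (5.41) and high-dose mice 2 and 3 (5.42 and 5.09) were highest, and the rest of the dosed mice lay between 4.10 and 4.79. The log2 fold changes were 0.27 ± 0.22 in low-dose mice (adjusted p = 0.677) and 0.28 ± 0.22 in high-dose mice (adjusted p = 0.813), or 0.13 at the high dose without high-dose mouse 2. The SD was 0.44 in low-dose mice and 0.50 in high-dose mice, against 0.13 in controls. Dosed mice were higher on 3 of the 4 slides at either dose.

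Hp encodes haptoglobin, which captures free hemoglobin, and Hpx encodes hemopexin, which captures free heme. The Hp spot was saturated on all 18 arrays, so its levels of 7.72 to 8.35 in controls, 7.54 to 8.01 in low-dose mice and 7.45 to 7.89 in high-dose mice are bounds, and differences between them measure no change in the transcript. Before scaling its log2 intensity was 15.78 to 16.04 in controls, 15.79 to 15.96 in low-dose mice and 15.86 to 15.92 in high-dose mice, close to the ceiling. The Hpx spot was saturated on 4 control, 5 low-dose and all 6 high-dose arrays, at levels of 7.96 to 8.34, 7.74 to 8.08 and 7.79 to 8.16 in these groups. Both genes had an unadjusted p under 0.05 against control at either dose, with lower scaled levels, and did not pass (adjusted p = 0.244 for Hp and 0.187 for Hpx in low-dose mice). No comparison of Hp or Hpx between the groups is drawn from these arrays.

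In all, 0 of 10 member probes passed in any comparison with limma. Over all probes, 54 of 25438 were called in low-dose mice (0.212%), 0 in high-dose mice (0%) and 11 of 25437 between the doses (0.0432%). At an unadjusted p under 0.05 there were 2 member genes (Hp and Hpx) against control at each dose and 0 between the doses, beside 12.2%, 7.1% and 7.63% of all probes. Of the 9 genes, 7 had a positive log2 fold change at each dose against control, where 49.3% and 50.9% of all probes did. Their median was 0.60 in low-dose mice and 0.45 in high-dose mice, or 0.63 and 0.50 without Hp and Hpx, while the median over all probes was 0.00 in both. The high-dose median of the 9 genes was 0.13 without high-dose mouse 2, with 6 positive. Both comparisons share the 6 controls. Between the doses the members' median was -0.02, with 3 of 9 higher in high-dose mice beside 52.4% of all probes. These 3 include Hp and Hpx, which rest on ceiling readings, and the median was -0.10 for the 7 genes without them. By mean level the order from lowest to highest was control, high dose, low dose for Saa1, Saa2, Saa3, Orm1, Orm2 and Lcn2, and control, low dose, high dose for Serpina3n. The dosed means of Saa1, Saa2 and Saa3 and the high-dose mean of Orm2 hold saturated spots, so their order between the doses cannot be read. High minus low dose was only -0.02 for Orm1 and -0.004 for Lcn2. No neighbours in these orders differed beyond the spread between mice.

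**Figure D2:**
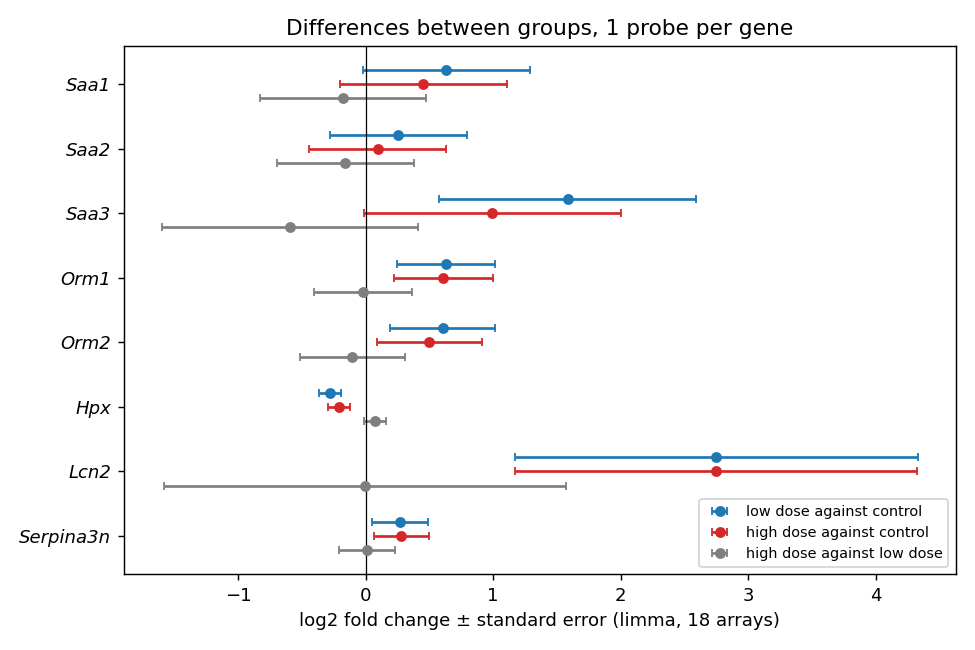
Log2 fold change with its standard error (horizontal axis, limma over 18 arrays) for 1 probe of each of 8 genes, without Hp, which was saturated on every array. Blue is low dose against control, red is high dose against control and grey is high against low dose. Error bars are widest for Lcn2 (1.58) and Saa3 (1.00), and none of these values passed the threshold; Hpx rests mostly on saturated spots.

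The genes were high in the same mice. Each of the 7 genes saturated on at most 9 arrays had its 6 highest livers almost wholly among low-dose mice 2, 4 and 6 and high-dose mice 2, 3 and 6. These 6 mice were among the top 6 of 18 in 7, 7, 6, 7, 7 and 6 of the 7 genes. By the levels as read, the only others to appear there were control mouse 6 for Saa2 and control mouse 3 for Serpina3n. For Saa2 the level of low-dose mouse 6 (7.55) is a saturated lower bound, so its order against control mouse 6 (7.91) cannot be read. The count of 6 for low-dose mouse 6 and the place of control mouse 6 rest on that order. Low-dose mouse 5 and high-dose mouse 5 were at the other end, with a median rank of 17 and 18. The 6 mice came from 4 slides, and the array brightness of those livers, 252 to 305 at the 75th percentile, lay within the 220.2 to 340.0 of all dosed arrays. Positions on the slide, numbered 1 to 4, were not balanced between the groups. Controls lay at positions 1 and 4 only. Position 2 held low-dose mice 2 and 6 and high-dose mice 2 and 3, and no other array. Low-dose mouse 4 lay at position 3 and high-dose mouse 6 at position 4. The part of position in these levels was not tested.

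This was measured as the correlation of deviations from the group mean over the 18 mice, which leaves out any difference between group means. Over the 21 pairs of the 7 genes, Pearson's r was 0.61 to 0.99 and Spearman's rho 0.60 to 0.98, with permutation within groups giving p of 1e-05 (the smallest possible) to 0.029 for r. After adjustment over the 21 pairs the largest p was 0.029 for r and 0.0177 for rho. Without the 2 mice farthest from the median, r was 0.57 to 0.99, and without high-dose mouse 2 it was 0.57 to 0.99. Within the groups rho was -0.14 to 1.00 in controls, 0.77 to 1.00 in low-dose mice and 0.54 to 1.00 in high-dose mice (n = 6 each). Serpina3n gave the low values in controls, with -0.14 to Saa1 and to Saa2.

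Neighbouring genes were closest. Saa1 and Saa2 had r = 0.99 and rho = 0.97 (permutation p = 1e-05 each), and Orm1 and Orm2 had r = 0.98 and rho = 0.98 (permutation p = 1e-05 each). Across chromosomes, Orm1 and Lcn2 had r = 0.91 and rho = 0.87 (permutation p = 1e-05 each), and Saa3 and Lcn2 r = 0.88 and rho = 0.88. The lowest value was that of Saa2 and Serpina3n (r = 0.61, rho = 0.60, permutation p = 0.029 and 0.0177). Saa1 and Saa2 transcripts are near copies, so their probes may read each other's RNA, and the ceiling flattens their highest values. Whether the Orm1 and Orm2 probes read each other's RNA was not tested. Array brightness, position on the slide and RNA quality are shared by all genes of 1 liver, and their part in these values was not tested.

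**Figure D3:**
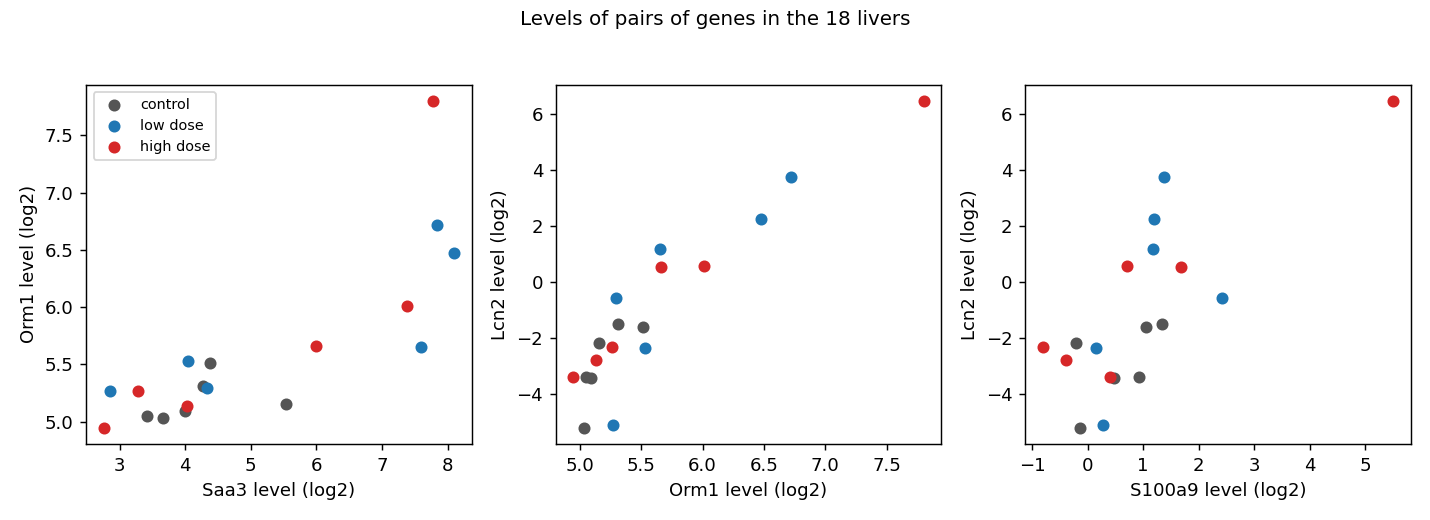
Levels of pairs of genes in the 18 livers (log2 intensity relative to the array's 75th percentile), with 1 point per mouse coloured by group. Saa3 and Orm1, and Orm1 and Lcn2, go together across both dosed groups, whereas S100a9, a neutrophil marker, is set apart from the rest in high-dose mouse 2 alone (5.50).

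Lcn2, saturated on no array and the most variable member, was used to ask which other genes went with it. Of 13218 named genes with no missing value, each read from its probe saturated on fewest arrays, those with the highest r over the 18 mice were C4a (0.95), Cd302 (0.94), Rpap3 (0.93), Prg4 (0.92), Tmem176a (0.91), Orm3 (0.91), Slc3a1 (0.91) and Serping1 (0.90). C4a is a complement C4 gene, Serping1 encodes the C1 inhibitor of complement and Orm3 is a further orosomucoid gene. Prg4 encodes the lubricating proteoglycan lubricin, and Slc3a1 a subunit of an amino acid transporter. Without high-dose mouse 2 these values were 0.83 to 0.94. They are given as a description, with no test.

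Other positive acute phase genes went with Lcn2 more unevenly. The list held 30 genes, of which 29 could be read and 15 were saturated on no array. Of the 13 of these with no missing value, 7 had r over 0.7 (53.8%), beside 188 of all 13218 genes (1.42%). The 7 were Orm3, Itih4, Crp, Steap4, Mt1, Il1rn and Apcs, and 3 of 13 were over it without high-dose mouse 2 (23.1%, beside 1.09% of all genes), namely Orm3 (0.84), Itih4 (0.78) and Mt1 (0.74). Apcs, serum amyloid P, stood at 6.80 in low-dose mouse 4 and at 7.59 and 6.48 in high-dose mice 2 and 3, against 4.07 to 5.63 in controls. High-dose mouse 6 stood at 5.99, whereas low-dose mice 2 and 6, at 4.92 and 4.97, lay among the controls. Crp, C-reactive protein, stood at 3.36 in low-dose mouse 4 and at 3.67 and 3.06 in high-dose mice 2 and 3, against 2.31 to 2.87 in controls. Low-dose mouse 2 and high-dose mouse 6 were just above the controls (2.94 and 2.90), and low-dose mouse 6 (2.77) lay among them.

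None of the 29 genes was called at either dose. At the low dose 16 were higher and 13 lower than in controls (median log2 fold change 0.09), and in high-dose mice 18 were higher and 11 lower (0.10). Of the 15 saturated on no array, 11 were higher in low-dose mice (median 0.17) and 12 in high-dose mice (median 0.39). Without high-dose mouse 2, 11 of 29 were higher at the high dose (median -0.12), a count that includes probes at the ceiling. Of the 15 saturated on no array, 8 were then higher (median 0.03). Orm3 had the highest value of the list in low-dose mice, 2.00 ± 0.91 (SE, limma, adjusted p = 0.386). In high-dose mice Mt2, saturated on 1 array, had the highest, 2.64 ± 1.33 (limma, adjusted p = 0.723), and Orm3 was next at 2.29 ± 0.91 (adjusted p = 0.666). With high-dose mouse 2 left out, Mt2 (2.15) and Mt1 (1.60) both stood above Orm3 (1.48). The Orm3 level was 4.29 in high-dose mouse 2 and 2.08 and 1.16 in low-dose mice 2 and 4, against -3.10 to -0.24 in controls. The genes of the list with the smallest p in low-dose mice, Fgb and Fgg (fibrinogen chains), Itih3 and Serpina3k, were saturated on 18, 18, 11 and 16 arrays, with values of -0.36, -0.36, -0.27 and -0.33.

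Genes of negative acute phase proteins gave no fall that could be read. Of 14 genes 13 were read, 10 of them lower in low-dose mice (median -0.35) and 11 in high-dose mice (median -0.31), with 0 called at either. The 8 with an unadjusted p under 0.05, among them Alb (albumin), Apoa1 and Apoa2 (apolipoproteins of high-density lipoprotein) and Rbp4 (retinol carrier), were all saturated on 17 or 18 arrays. The 5 saturated on none, such as Ttr (transthyretin) and Igf1, had a median of 0.13 in low-dose mice and -0.02 in high-dose mice (0.03 without high-dose mouse 2, and -0.32 for the 13). Of these 5, 0 had r under -0.7 with Lcn2, beside 0.855% of all genes. Their median r was 0.54 without high-dose mouse 2, and 1 of them, Serpina6 (corticosteroid-binding globulin), then had r = 0.71.

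The 25 genes of cytokine signalling to the acute phase genes were all read and none was saturated or called. At the low dose 12 were higher and 13 lower (median -0.01), and in high-dose mice 17 were higher and 8 lower (median 0.08), or 15 and 10 without high-dose mouse 2 (median 0.04). Il6ra, the interleukin 6 receptor, had the smallest p of the list in low-dose mice (-0.51 ± 0.15 SE, adjusted p = 0.157). Nfkbia, an inhibitor of NF-kB that NF-kB itself induces, had the smallest between the doses, at 0.64 ± 0.13 SE for high against low dose (adjusted p = 0.129), or 0.55 without high-dose mouse 2. Stat3, Socs3 (the feedback inhibitor of STAT3 signalling), Nfkbiz and Il6 had r over 0.7 with Lcn2, and 0 of the 25 did without high-dose mouse 2. The Il6 probe was well above background on 10 of 18 arrays, so its levels are poorly measured. Stat3 stood at 4.92 in low-dose mouse 4 and 4.63 in high-dose mouse 2, the 2 highest of 18, and at 2.57 to 3.88 in controls. Socs3 stood at 3.39 and 4.45 in these 2 mice and at 0.67 to 3.38 in controls. With high-dose mouse 2 left out, the high-dose means were not above those of controls. They were 3.19 against 3.26 for Stat3 and 1.30 against 2.00 for Socs3. In low-dose mice the log2 fold changes against control were 0.37 for Stat3 and -0.20 for Socs3.

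**Figure D4:**
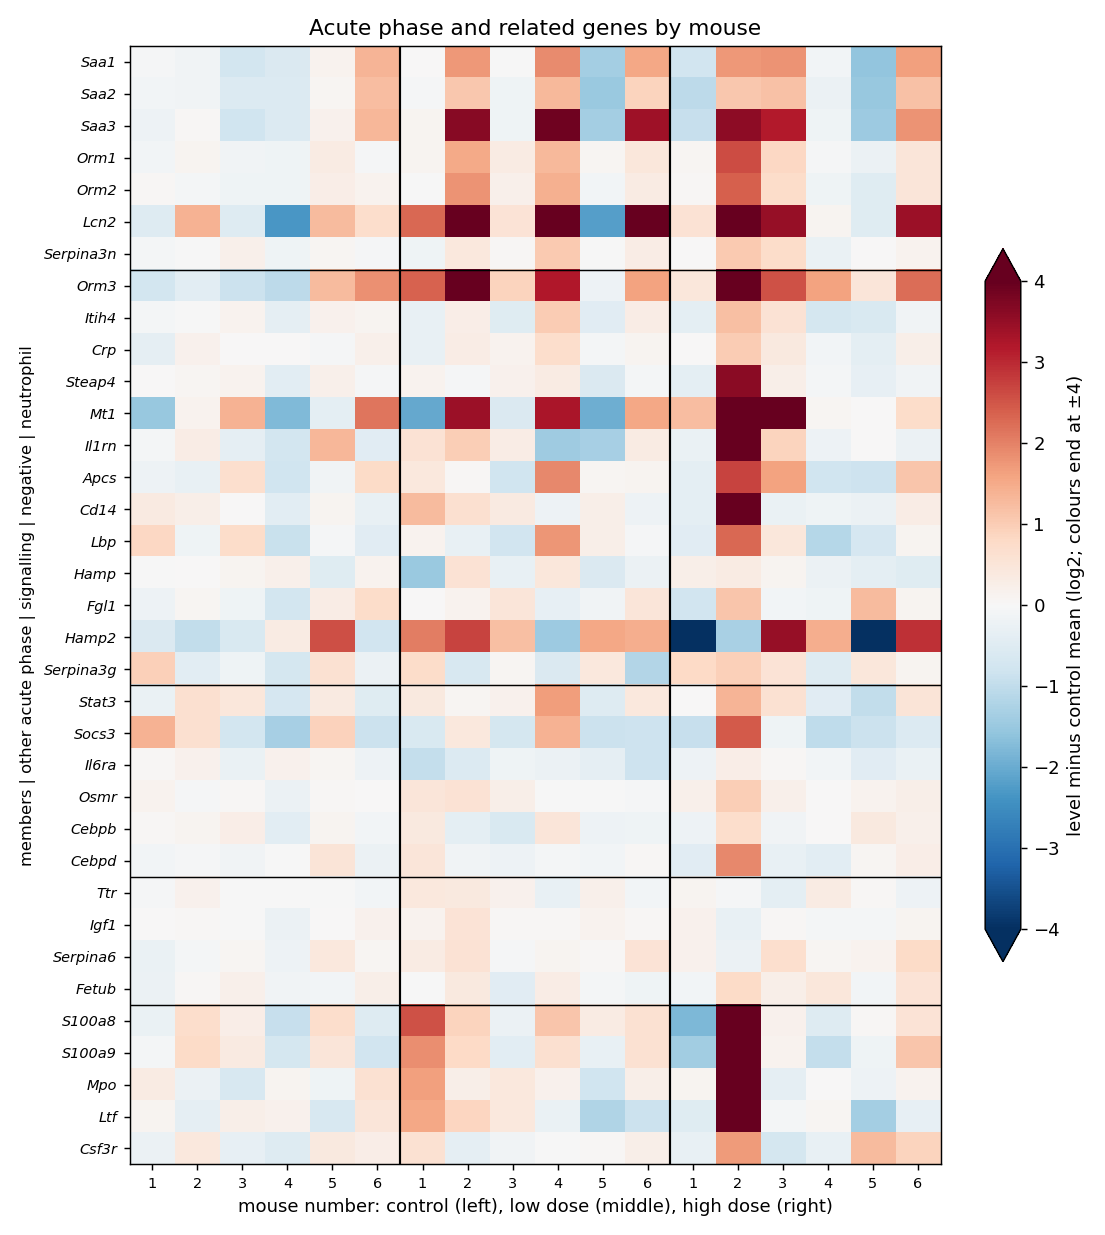
Level of each gene in each mouse minus the control mean (log2, colours end at ±4), for 7 members and for chosen genes, saturated on no array, of 4 further lists; columns are mice 1 to 6 of the control, low-dose and high-dose groups. Low-dose mice 2, 4 and 6 and high-dose mice 2, 3 and 6 are red over most members, and the neutrophil markers are dark red in high-dose mouse 2.

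Markers of other cell types were read beside these genes. Of 13 neutrophil markers 5 were read, and the rest, Ngp, Camp, Elane and Mmp8 among them, were well above background on too few arrays or had no probe matched. S100a8 and S100a9 had r of 0.72 and 0.77 with Lcn2, and 0 of the 5 had r over 0.7 without high-dose mouse 2. All 12 Kupffer cell and macrophage markers were read and 0 had r over 0.7 with Lcn2. Their summed level was 33.0 to 102 in controls, 40.8 to 113.9 in low-dose mice and 47.9 to 171 in high-dose mice. The 171 was high-dose mouse 2, and the other high-dose mice reached 77.4. Of 7 adipocyte markers 3 were read: Fabp4 and Cidec were well above background on 18 arrays and Cfd on 6, while Retn was so on 1 and Adipoq, Plin1 and Lep on 0. Hepatocyte markers, 11 of 12 read, summed to 1200 to 1589 in controls, 1147 to 1458 in low-dose mice and 1150 to 1466 in high-dose mice. These sums hold spots at the ceiling (Alb on 18 arrays, Apoh on 16, Cyp2e1 on 4). The 8 markers saturated on no array summed to 578 to 788 in controls, 652 to 818 in low-dose mice and 553 to 764 in high-dose mice. Their part in the levels of the acute phase genes was not tested.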

How the data were processed

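The deposited scanner files hold, per the file headers, the intensity of each spot, with background already subtracted by the scanner software and no normalisation between arrays; the submitters' processing notes name it as Agilent Feature Extraction 9.5. The series' deposited value table holds log2 values for 22514 probes, made by steps not given in the sources used here beyond limma, per the submitters' processing notes, and served as an alternative. From each log2 intensity the array's 75th percentile was subtracted. Outlier spots were dropped, repeated spots of a probe averaged, and 25439 probes kept that were well above background on 6 arrays or more. limma 3.58.1 (R 4.3.3; lmFit, eBayes) fitted every probe alone over all 18 arrays with group as the term. P-values are 2-sided, adjusted by Benjamini-Hochberg over all probes, with a threshold of 0.05. A gene with several probes was read from the one saturated on fewest arrays. Symbols were updated through transcript accessions (23374 probes matched, 4830 changed).

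Single probes were also compared by exact permutation over 924 splits, and correlations by 100000 permutations within groups. The genes most like Lcn2 and up to 4 genes of each list with the smallest p were named, and genes beyond these were chosen after their values were seen, as was the limit of 0.7 on r. The 9 genes, lists and tests were chosen with earlier results of these data known. On simulated data for low dose against control (24881 probes), 70% of probes changed by 1 on the log2 scale were called and 92% at 2, with 6.36% of calls false. The changed probes were picked at random, and the median SE over all probes was 0.16. Orm1, Saa1, Saa3 and Lcn2 had SEs of 0.39, 0.65, 1.00 and 1.58, so these percentages do not hold for them. The alternatives tried were other scalings, normexp background, the deposited table, other probe filters and probe rules, other limma settings, slide or mouse number as a block, saturated spots set to missing and each array left out. Precision is set by the number of arrays, each of a separate animal.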

Additional observations from a re-analysis of the deposited data

Results flagged for a closer look

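In the 30 sets of 6 mice (10 probes in 3 groups), 2 values stood apart from the others of their group by the gap to the nearest mouse over the whole range; chance alone flags about 1 in 20 such sets. Saa2 was 7.91 in control mouse 6, where the nearest control was 6.74. The gap was 0.66 of the range of the controls, and the spot was not saturated. Saa1 and Saa3 were highest in the same control mouse, at 7.34 and 5.54, while its Orm1, Lcn2 and Serpina3n levels of 5.16, -2.18 and 4.32 lay within the range of the other controls. Orm1 was 7.80 in high-dose mouse 2, where the nearest high-dose mouse was 6.01, a gap of 0.627 of the range. That mouse also had the highest Orm2, Lcn2 and Serpina3n levels of the 18 livers.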

How the results depend on the processing

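Under every alternative tried, 0 of the member probes passed in any of the 3 comparisons, with or without each array, and of the member values set against the main ones 843 kept their sign and 66 did not. The count of probes called for low dose against control, 54, was 15 with the array median as scale, 936 without scaling, 7 with normexp background, 19 with no filter on dim probes and 147 with only probes well above background on all 18 arrays. It was 22 with the mean of a gene's probes, 128 with only the groups compared, 137 with trend and robust, 4 with slide as a block and 195 with array weights. The count for high against low dose, 11, was 7 with the array median, 0 without scaling, 1 with normexp, 4 with no filter, 5 with the brightest probe, 6 with the mean of probes, 0 with only the groups compared, 0 with slide as a block and 41 with array weights. Leaving out 1 array gave 8 to 122 probes for low dose against control, 0 to 0 for high dose against control and 0 to 22 between the doses. Without control mouse 1 the low-dose count was 8, and without high-dose mouse 2 it was 122. With mouse number as a block the counts were 14 for low dose against control and 0 between the doses, and it changed no call of a member. Same-numbered mice had correlations of deviations of -0.29 to 0.33, and of -0.02 to 0.33 for high dose against control. Mice of unlike number were not compared, so these values cannot tell whether the numbers pair the mice.

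Signs that turned were those of small differences or of saturated probes. Values of Hp here are differences between ceiling readings, not changes in the transcript. Hpx in high dose against control was 0.056 with quantile normalisation, 0.13 without scaling and 0.0045 in the deposited table, and Hp 0.017 without scaling. In low dose against control, Hp and Hpx were 0.0062 and 0.068 without scaling and 0.0042 and 0.031 with normexp. Between the doses, Hp was -0.041 with the array median and -0.20 with normexp, Hpx -0.18 with normexp, and Serpina3n -0.048 with the array median, -0.16 with normexp and -0.11 with array weights. Orm1 was 0.020 with quantile normalisation, 0.062 with slide as a block and 0.0025 with a random slide effect, and Lcn2 0.11 and 0.027 in these slide fits. With saturated spots set to missing, which drops the highest mice by construction, Saa1 was -0.46 and Saa2 -0.56 for low dose against control, -0.21 and -0.94 for high dose against control, and Saa1 0.25 between the doses. With array weights Saa2 was -0.27 for high dose against control. With each array left out, Saa2 in high dose against control was -0.12 to 0.42. Between the doses the ranges were -0.58 to 0.23 for Saa1, -0.51 to 0.16 for Saa2, -0.42 to 0.16 for Orm1, -0.48 to 0.14 for Orm2, -0.024 to 0.083 for Hp, -1.33 to 0.77 for Lcn2 and -0.14 to 0.17 for Serpina3n. The causes were not tested. Of the 21 pairs of genes, 20 to 21 passed with each mouse left out (a choice made after the data were seen), 20 without low-dose mouse 4 and 20 without high-dose mouse 3. List values without high-dose mouse 2, and marker sums without saturated genes, were also chosen after the data were seen. The limits are the scanner ceiling for Hp, Hpx, Saa1, Saa2 and Saa3, and for Lcn2 the background in 2 livers. In high-dose mouse 2 the Orm2 spot was at the ceiling and the Orm1 spot was near it.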
